A study of Mus musculus with 18 samples.

Results

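The 33 genes described here make cholesterol, sense it, move it or export it. They were taken from a list of symbols matched to the Ensembl identifiers of the count tables, and all 33 were found among 56953 identifiers and passed the filter on low counts, which left 16743 genes for testing. By role, 18 encode enzymes of cholesterol synthesis, 7 act in the mevalonate part of the pathway and 11 from squalene onward, and Ggps1 stands at the isoprenoid branch. Another 7 sense sterols or control transcription, 5 act in uptake control, transport or storage, and Abca1 and Abcg1 export cholesterol.

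The RNA came from natural killer (NK) cells, innate lymphocytes that lyse virus-infected and tumour cells. They were taken from mouse spleen and kept in 1% oxygen for 7 days, with interleukin 2 at 1700 U/ml. The 6 groups of 3 libraries were Hif1a KO (Ncr1-iCre, Hif1a fl/fl) and Hif1a flox (Hif1a fl/fl), Ahr KO (Ncr1-iCre, Ahr fl/fl) and Ahr flox (Ahr fl/fl), and Hif1a Ahr KO (Ncr1-iCre with both floxed genes) and Hif1a Ahr flox (both floxed genes without the Cre). Ncr1-iCre expresses the recombinase from the locus of Ncr1, a receptor gene of NK cells, so deletion is limited to cells that have used that locus. All groups shared the hypoxia and the cytokine, each KO differed from its flox group in the Cre as well as in the deleted gene, and no group carried the Cre alone, so those differences cannot be told apart. The ages of the mice were not given in the sources used here.

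Hif1a encodes the part of HIF-1 that is stabilised when oxygen is low. Ahr encodes AhR, a receptor for aromatic ligands that shares the partner Arnt with HIF-1. Animal cells build cholesterol from acetyl-CoA through mevalonate, farnesyl diphosphate, squalene and lanosterol. When sterols are scarce in the endoplasmic reticulum, Scap carries the SREBP transcription factors (made from Srebf1 and Srebf2) to the Golgi, where they are cut and released to switch on the synthesis genes; when sterols are plentiful, the Insig proteins hold Scap back. The liver X receptors, Nr1h2 and Nr1h3, respond to oxysterols and drive export through Abca1 and Abcg1 and degradation of lipoprotein receptors through Mylip.

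Library totals lay between 54420649 and 55732940 estimated counts. All 12 NK cell markers were present in every library. Of the macrophage and monocyte markers, C1qa, C1qb, C1qc, Adgre1, Mrc1 and Marco reached at most 0.0874 CPM in any library. Others of that list were higher: Cd68 reached 53.9 CPM, Cd14 5.79 CPM, Csf1r 4.39 CPM and Lyz2 1.24 CPM. Markers of further cell types were also read, such as Cd3g (up to 89.2 CPM) and Mcpt8 (up to 210 CPM). Summed neutrophil markers stayed at or under 5.89 CPM in every library, and B cell and erythroid markers at or under 1.255 CPM. Gene-level transcripts of Hif1a stood at 182, 147 and 210 CPM in Hif1a KO, against 64.9, 59.5 and 56.5 CPM in Hif1a flox, a rise of 1.58 ± 0.11 on the log2 scale (SE; adjusted p = 6.50e-09). Ahr did not pass the test in any line, and these gene-level counts do not show whether the floxed exons were removed. Ncr1 itself rose in all 3 KO groups, by 0.92, 0.97 and 1.06 in Hif1a, Ahr and Hif1a Ahr KO (SE 0.10 or 0.11 each). Levels are counts scaled to library size with TMM factors (CPM), and a gene is called, or said to have risen or fallen, at a Benjamini-Hochberg adjusted p under 0.05 from edgeR's quasi-likelihood test over all genes tested. Since gene lengths do not enter CPM, levels are compared between libraries and never between genes.

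The first comparison asks which sterol genes depend on Hif1a in hypoxic NK cells. In Hif1a KO cells 17 of 18 synthesis enzymes fell against Hif1a flox cells, and the median log2 change of the 18 was -1.18, against -0.01 for all genes tested. Of all 33 members, 26 fell, Abca1 and Abcg1 rose, and 5 were not called, where 35.4% of all genes tested were called, 17.8% lower and 17.6% higher. With library totals alone as the scaling, the split of all genes moved to 4117 higher and 2156 lower, against 2948 higher and 2972 lower with TMM. The 15 members that are not synthesis enzymes had a median change of -0.32, with 9 lower and 2 higher. In bulk RNA, fewer cells of a type and less RNA per cell cannot be told apart. Summed over its list, the level of NK cell markers was 22040 to 24480 CPM in Hif1a KO and 29680 to 34850 CPM in Hif1a flox (5 of 12 higher, 5 lower). Most of the NK cell sum was Gzma and Gzmb. The sum of T cell markers was 474 to 476 CPM in Hif1a KO and 559 to 616 CPM in Hif1a flox (4 of 12 lower). That of mast cell and basophil markers was 10.8 to 44.1 CPM in Hif1a KO and 129 to 182 CPM in Hif1a flox (2 of 3 tested lower). Dendritic cell markers summed to 333 to 405 CPM in Hif1a KO and 231 to 272 CPM in Hif1a flox (2 of 5 tested higher, 1 lower). Most of that sum was Itgax, with 315, 384 and 317 CPM in Hif1a KO, against 184, 227 and 208 CPM in Hif1a flox. H2-Ab1 of that list had 5.66, 5.63 and 4.13 CPM in Hif1a KO, against 38.3, 36.5 and 44.1 CPM in Hif1a flox. Neutrophil markers summed to 0.0853 to 0.138 CPM in Hif1a KO and 1.41 to 5.82 CPM in Hif1a flox (4 of 5 tested lower). The part of these cells in the results was not tested.

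All 7 enzymes of the mevalonate part fell, by 0.75 to 1.55 on the log2 scale. Hmgcs1, which joins acetyl-CoA to acetoacetyl-CoA, had 309, 241 and 394 CPM in Hif1a KO libraries, against 822, 696 and 1016 CPM in Hif1a flox libraries. Every KO library lay below every flox library, and the change was -1.42 ± 0.26 (SE; adjusted p = 6.16e-04). Mvd, the decarboxylase that yields isopentenyl diphosphate, had 32.3, 26.2 and 36.8 CPM in Hif1a KO and 88.7, 75.5 and 115 CPM in Hif1a flox. This was the lowest fold change of any member, at -1.55 ± 0.20 (adjusted p = 3.90e-05). Pmvk, the phosphomevalonate kinase, changed by -1.41 ± 0.22 (adjusted p = 1.52e-04), Idi1, the isopentenyl diphosphate isomerase, by -1.17 ± 0.14 (adjusted p = 3.99e-06), and Mvk, mevalonate kinase, by -0.75 ± 0.12 (adjusted p = 9.48e-05). Fdps, which makes farnesyl diphosphate, had 152, 143 and 185 CPM in Hif1a KO, against 397, 348 and 442 CPM in Hif1a flox, again with no overlap (-1.31 ± 0.13, adjusted p = 8.99e-07). Acat2, the cytosolic thiolase that opens the pathway, changed by -0.99 ± 0.18 (adjusted p = 5.34e-04); it lies beside a near-identical copy, Acat3, so its estimated counts may hold reads of both.

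In the squalene and sterol part, 10 of 11 enzymes fell and the median change was -0.96. Sqle, the squalene epoxidase that performs the first oxygen-dependent step, had 95.1, 74.5 and 111 CPM in Hif1a KO, against 214, 183 and 241 CPM in Hif1a flox (-1.18 ± 0.17, adjusted p = 6.14e-05). Lss, which closes the ring to lanosterol, had 91.5, 91.7 and 101 CPM in Hif1a KO and 225, 219 and 258 CPM in Hif1a flox (-1.30 ± 0.13, adjusted p = 6.08e-07). For both genes the KO and flox libraries were far apart. Fdft1, squalene synthase, changed by -1.23 ± 0.21, Cyp51, the lanosterol demethylase, by -1.24 ± 0.17, and Hsd17b7, a sterol ketoreductase, by -1.20 ± 0.19 (adjusted p = 3.39e-04, 4.88e-05 and 2.00e-04). Msmo1, a methylsterol oxidase that uses oxygen, changed by -0.96 ± 0.19, Nsdhl, a dehydrogenase that acts after it in demethylation, by -0.74 ± 0.16, and Sc5d, a desaturase that uses oxygen, by -0.91 ± 0.14 (adjusted p = 0.00111, 0.00172 and 1.15e-04).

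The late isomerase and reductases moved least. Ebp, the sterol isomerase, had 64.0, 61.1 and 66.2 CPM in Hif1a KO, against 72.0, 68.0 and 76.0 CPM in Hif1a flox, a small change of -0.17 ± 0.06 (adjusted p = 0.0412). It was not called without Hif1a KO replicate 1 or 2 or without Hif1a flox replicate 1 or 3 (adjusted p = 0.0854, 0.154, 0.0906 and 0.176), with no filter on low counts (0.14), or with library totals alone as the scaling (-0.07, adjusted p = 0.413). Dhcr7, a late sterol reductase, changed by -0.58 ± 0.16 (adjusted p = 0.00867; 0.0503 without Hif1a flox replicate 3). Tm7sf2, a sterol reductase whose step a nuclear envelope receptor can also perform, had 9.46, 9.35 and 10.7 CPM in Hif1a KO, against 11.4, 11.3 and 13.3 CPM in Hif1a flox, and was not called (-0.29 ± 0.14, adjusted p = 0.135), although the groups did not overlap. With the replicate number as a block it passed (adjusted p = 0.0274), so that all 18 enzymes fell. Over the 33 members, 27 had all KO libraries below all flox libraries and 3 had them all above, against 25.1% and 24.8% of all genes tested; the 27 include all 18 enzymes.

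**Figure D1:**
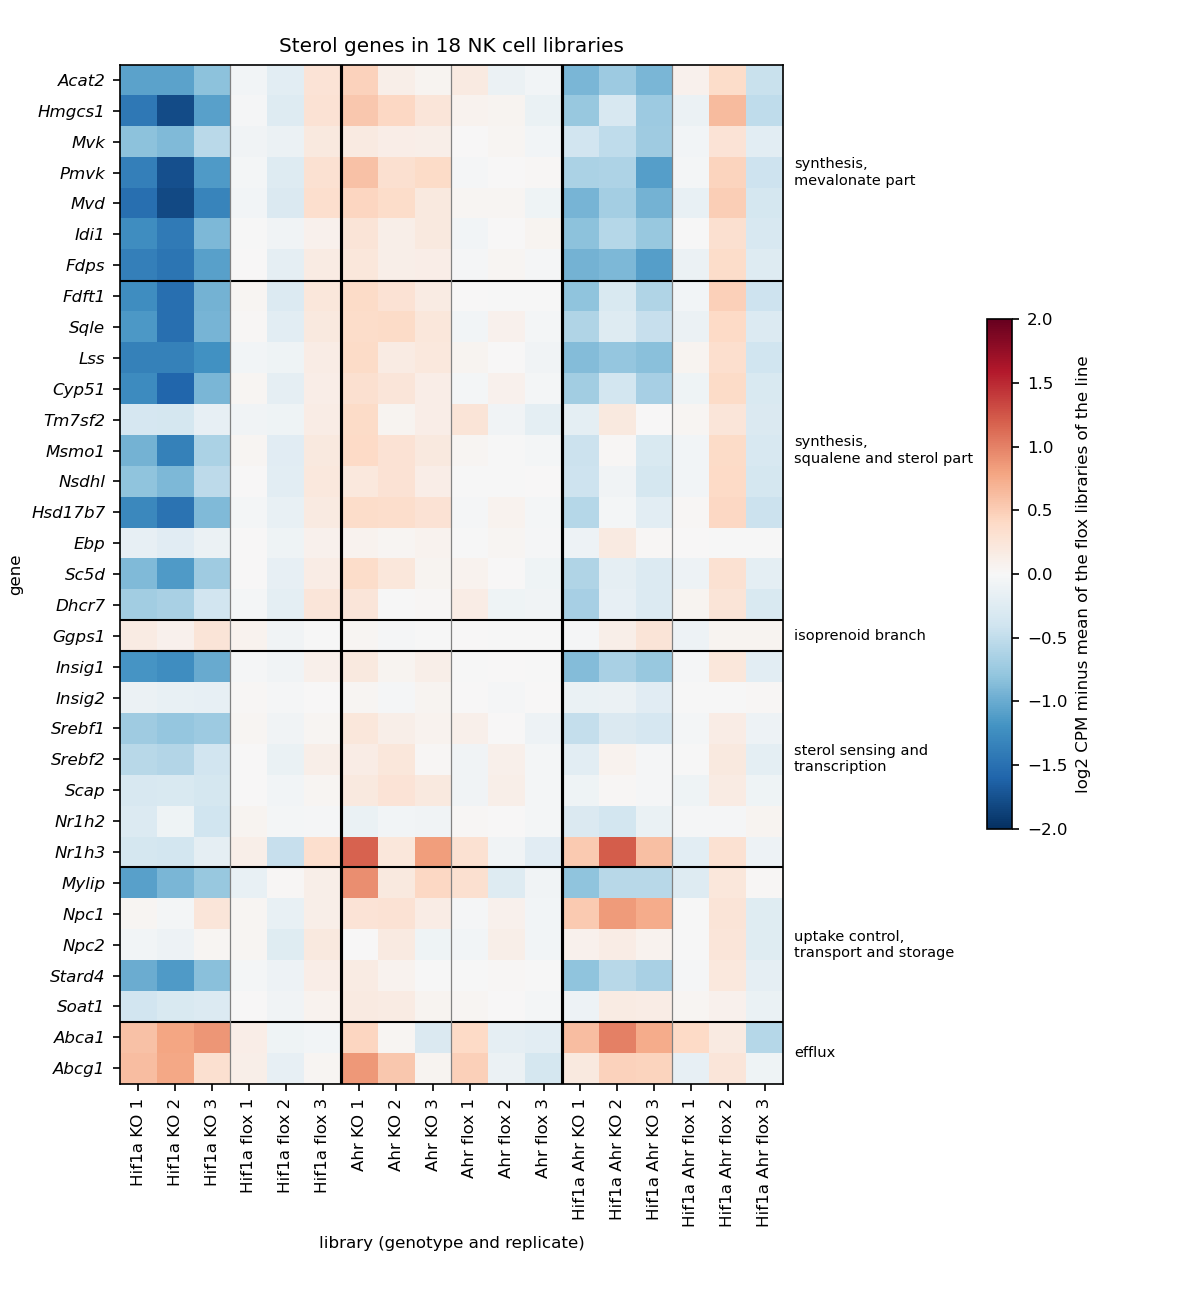
Each row is 1 of the 33 genes, grouped by role, and each column 1 of 18 libraries, with KO left of flox in each line; colour gives log2 CPM minus the mean of the 3 flox libraries of the line, blue lower and red higher. The blue block covers the enzymes, Insig1, Srebf1, Mylip and Stard4 in Hif1a KO. It is paler in Hif1a Ahr KO, where Ebp and Tm7sf2 are not lower in every library, while Abca1 and Abcg1 are red in Hif1a KO.

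The promoters of the enzymes share short letters. RefSeq windows from 250 bases before to 50 after a transcript start (GRCm38.p6, the build before the GRCm39 of the counts) were found for 27 of the 33 members, 15 of them enzymes. The box CCAAT, known to bind NF-Y, a partner of SREBP, occurred on either strand in 14 of 15 enzymes and 22 of 27 members, against 41.1% of all 27025 genes in the table and 42.6% of those that were also tested. The Sp1 box GGGCGG occurred in 14 of 15 enzymes and 23 of 27 members, against 38.2% of all genes and 64.8% of tested genes. The sterol regulatory element core TCACNCCAC occurred in Hmgcs1 alone of the 27, where 1.44% of all genes held it. ACGTG, a form of the core of hypoxia response elements, occurred in 3 of 15 enzymes and 6 of 27 members, against 21.8% of all genes and 28.5% of tested genes. GCGTG, the core of AhR response elements and also a form of the hypoxia core, occurred in 10 of 15 enzymes and 16 of 27 members, against 35.2% and 53.2%. On the opposite strand ACGTG reads CACGT, so 1 palindromic CACGTG counts as 2 overlapping matches. A match is a description of letters, not a bound site, and a missing one says nothing of regulation.

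These 4 promoters are shown as examples and were not picked by rank. Mvd, the member with the lowest fold change in Hif1a KO, has a window but is not shown. Hmgcs1 is the only member with the sterol regulatory element core. Hmgcs1 (chr13:119690101-119690400, plus strand) and Lss (chr10:76531355-76531654, plus strand) are enzymes that fell, Insig1 (chr5:28071162-28071461, plus strand) is the sensor that fell with the smallest adjusted p, and Abca1 (chr4:53159846-53160145, minus strand) is an exporter that rose. Capitals mark CCAAT, TCACNCCAC and ACGTG on either strand, so that a box on the opposite strand reads ATTGG.
Hmgcs1: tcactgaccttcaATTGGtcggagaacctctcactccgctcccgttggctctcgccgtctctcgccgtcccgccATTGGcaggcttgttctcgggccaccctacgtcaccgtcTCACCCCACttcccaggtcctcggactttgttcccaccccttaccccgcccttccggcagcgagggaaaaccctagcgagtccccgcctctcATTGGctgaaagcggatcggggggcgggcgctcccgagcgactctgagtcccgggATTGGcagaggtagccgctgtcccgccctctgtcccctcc
Lss: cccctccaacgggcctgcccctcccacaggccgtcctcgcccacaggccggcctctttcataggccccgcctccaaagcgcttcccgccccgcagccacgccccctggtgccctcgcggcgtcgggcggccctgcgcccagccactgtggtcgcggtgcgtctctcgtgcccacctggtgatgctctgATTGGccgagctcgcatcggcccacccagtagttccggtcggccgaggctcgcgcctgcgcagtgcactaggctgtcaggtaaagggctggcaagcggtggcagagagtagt
Insig1: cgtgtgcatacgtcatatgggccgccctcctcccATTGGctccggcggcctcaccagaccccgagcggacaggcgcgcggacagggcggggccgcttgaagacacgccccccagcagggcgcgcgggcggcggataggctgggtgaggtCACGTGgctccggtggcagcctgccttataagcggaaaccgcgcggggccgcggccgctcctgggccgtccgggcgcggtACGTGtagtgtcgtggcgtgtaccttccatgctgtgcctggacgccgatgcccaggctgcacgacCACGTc
Abca1: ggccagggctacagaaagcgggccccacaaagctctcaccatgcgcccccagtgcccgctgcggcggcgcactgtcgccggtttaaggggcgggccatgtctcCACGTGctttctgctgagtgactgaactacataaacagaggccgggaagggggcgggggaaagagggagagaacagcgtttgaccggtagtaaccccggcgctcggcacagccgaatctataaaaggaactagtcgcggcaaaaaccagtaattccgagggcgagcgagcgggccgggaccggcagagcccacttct
Hmgcs1 held 4 CCAAT boxes and the sterol core at bases -137 to -129 from the start, Lss held 1 CCAAT box, Insig1 held 1 CCAAT box and 4 ACGTG matches of which 2 overlap, and Abca1 held 2 overlapping ACGTG matches and no CCAAT box.

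Genes that sense sterols fell with the enzymes in Hif1a KO, 6 of 7 of them. Insig1, which retains Scap when sterols are plentiful and is itself an SREBP target, had 62.2, 59.4 and 70.0 CPM in Hif1a KO, against 138, 133 and 150 CPM in Hif1a flox. The groups were well apart, and the change of -1.14 ± 0.09 had the smallest adjusted p of any member (5.45e-08). Srebf1, which encodes SREBP-1, had 87.5, 83.8 and 85.9 CPM in Hif1a KO and 146, 137 and 146 CPM in Hif1a flox (-0.74 ± 0.07, adjusted p = 6.20e-07). Srebf2, which encodes SREBP-2, the main activator of cholesterol synthesis, had 363, 357 and 410 CPM in Hif1a KO, against 536, 489 and 579 CPM in Hif1a flox (-0.51 ± 0.10, adjusted p = 7.61e-04). Every Hif1a KO library was below every Hif1a flox library for all these genes. Scap changed by -0.33 ± 0.07 (adjusted p = 9.46e-04). Insig2, the second Insig, changed by only -0.14 ± 0.05 (adjusted p = 0.0466), and this call was lost when any 1 of the 6 libraries was left out (adjusted p from 0.0657 to 0.134) under the replicate block (0.0594), and with library totals alone as the scaling (-0.04, adjusted p = 0.683).

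Of the liver X receptors, Nr1h2, the form made in most tissues, changed by -0.25 ± 0.07 in Hif1a KO (adjusted p = 0.0135), a call lost without Hif1a KO replicate 3 (0.0886) or Hif1a flox replicate 1 (0.0625) and with library totals alone as the scaling (-0.14, adjusted p = 0.186). Nr1h3, the form of macrophages and liver, was near the detection floor at 0.311, 0.307 and 0.353 CPM in Hif1a KO, against 0.436, 0.289 and 0.510 CPM in Hif1a flox, and was not called (adjusted p = 0.431).

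Uptake control and transport genes split. Mylip, the ligase that marks lipoprotein receptors for degradation, had 8.63, 9.71 and 10.9 CPM in Hif1a KO, against 16.5, 18.7 and 20.0 CPM in Hif1a flox (-0.92 ± 0.18, adjusted p = 0.00103). Stard4, a carrier that moves cholesterol between membranes, had 162, 146 and 179 CPM in Hif1a KO and 312, 298 and 351 CPM in Hif1a flox (-0.98 ± 0.10, adjusted p = 6.16e-07). Soat1, which esterifies cholesterol for storage, changed by -0.32 ± 0.07 (adjusted p = 0.00213). Npc1 and Npc2, which release cholesterol from lysosomes, were not called: Npc1 had 97.0, 91.8 and 112 CPM in Hif1a KO, against 96.5, 84.9 and 102 CPM in Hif1a flox, and the groups overlapped (0.09 ± 0.11, adjusted p = 0.597). Ggps1, which makes geranylgeranyl diphosphate, had 37.2, 35.2 and 39.6 CPM in Hif1a KO and 34.9, 31.7 and 33.1 CPM in Hif1a flox; it was not called (0.17 ± 0.07, adjusted p = 0.0717) but rose under the replicate block (adjusted p = 0.0269).

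The exporters moved the other way. Abca1, the transporter that hands cholesterol to lipid-poor apolipoproteins, had 3.87, 4.49 and 4.79 CPM in Hif1a KO, against 2.82, 2.44 and 2.50 CPM in Hif1a flox (0.76 ± 0.23, adjusted p = 0.0138). Abcg1, which exports cholesterol to mature lipoprotein particles, had 5.27, 5.87 and 4.30 CPM in Hif1a KO, against 3.75, 3.08 and 3.53 CPM in Hif1a flox (0.57 ± 0.21, adjusted p = 0.0442). Neither gene overlapped between groups, but Abcg1 was no longer called without any 1 of 5 libraries, all except Hif1a KO replicate 3 (adjusted p from 0.0654 to 0.154), whereas Abca1 was called in each of those fits. Both are also known from macrophages, and the summed level of the 13 macrophage and monocyte markers was 51.9 to 55.8 CPM in Hif1a KO and 34.4 to 43.0 CPM in Hif1a flox, most of it Cd68, with 4 of 13 markers tested (1 higher, 3 lower). C1qa, C1qb, C1qc, Adgre1, Mrc1 and Marco stayed near 0 as given above. Csf1r had 0.432, 0.119 and 0.265 CPM in Hif1a KO, against 2.63, 1.05 and 4.10 CPM in Hif1a flox. Cd14 had 1.35, 0.512 and 1.52 CPM in Hif1a KO, against 5.095, 2.56 and 4.91 CPM in Hif1a flox. The part of these cells in the result was not tested.

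**Figure D2:**
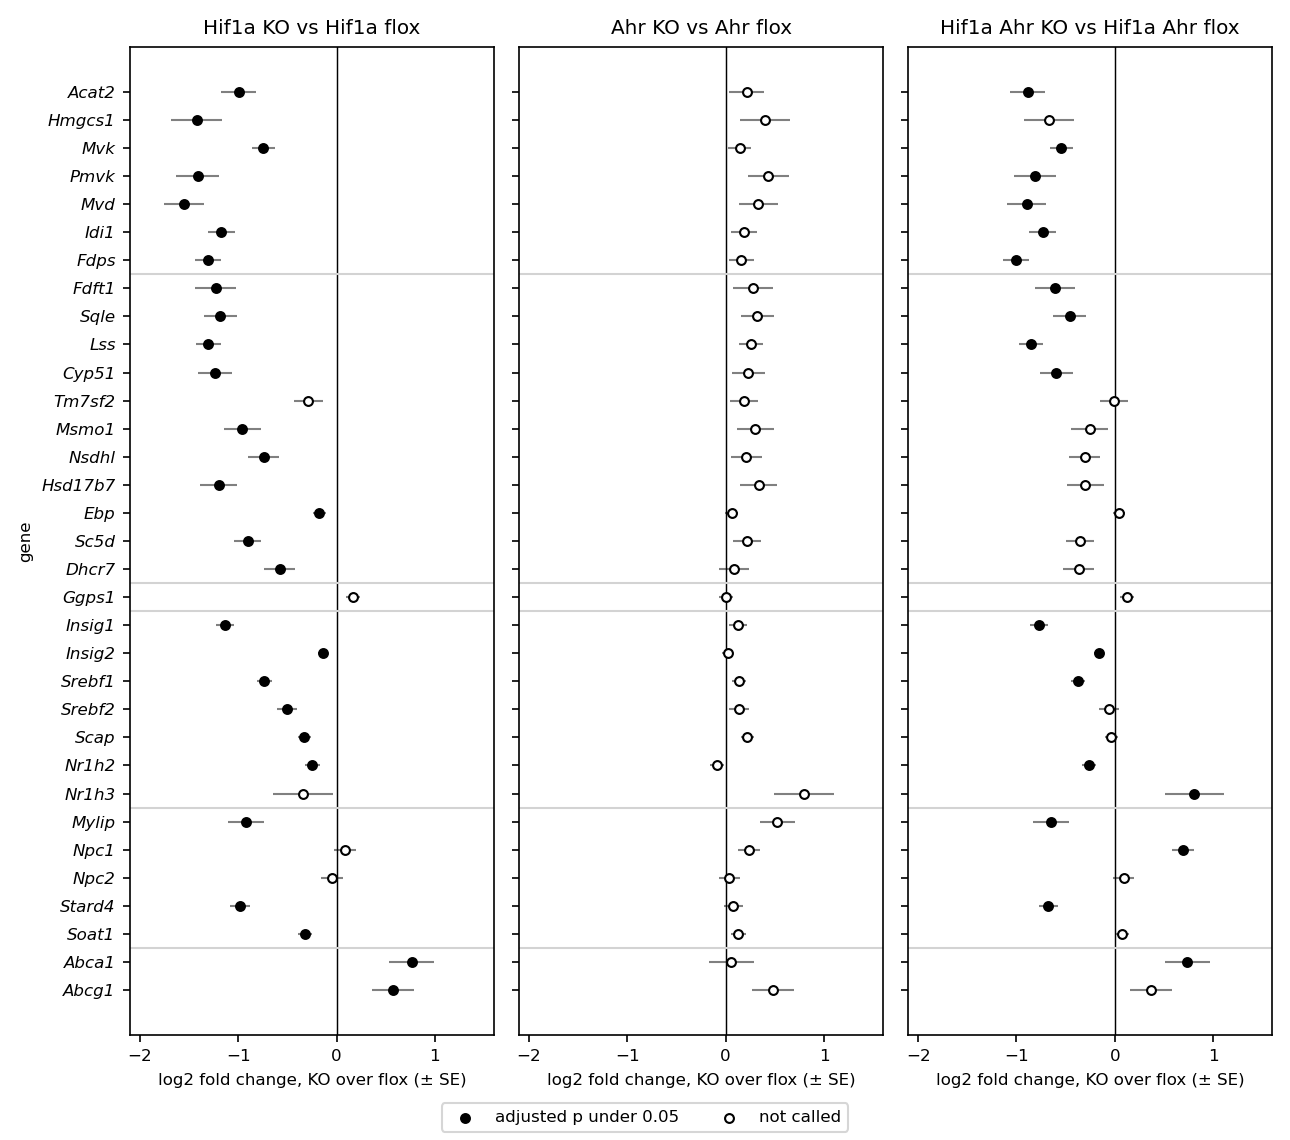
Points give the log2 fold change of each gene, KO over flox, with its standard error, in Hif1a, Ahr and Hif1a Ahr from left to right; filled points passed an adjusted p of 0.05. The enzymes lie left of 0 in Hif1a KO, between 0.06 and 0.43 in Ahr KO with no filled point, and between -1.01 and 0.04 in Hif1a Ahr KO.

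The second comparison asks the same of Ahr. No member passed the test in Ahr KO against Ahr flox (smallest adjusted p 0.0534, Scap), where 6.91% of all genes tested were called, 2.13% higher and 4.78% lower; 5 of 33 members and 0 of 18 enzymes had an unadjusted p under 0.05. The log2 changes were nonetheless positive for 32 of 33 members and for 18 of 18 enzymes, against 8433 of 16743 genes tested. Their median was 0.22 over the enzymes and 0.00 over all genes tested. The enzymes moved together between Ahr KO libraries, with 15 of 18 highest in replicate 1, so their signs are not separate observations. Hmgcs1 had 1080, 991 and 886 CPM in Ahr KO, against 783, 777 and 683 CPM in Ahr flox, which did not overlap (0.40 ± 0.25, adjusted p = 0.418). Sqle had 246, 248 and 223 CPM in Ahr KO and 185, 202 and 186 CPM in Ahr flox (0.32 ± 0.17, adjusted p = 0.293). In 18 members, 14 of them enzymes, every Ahr KO library was above every Ahr flox library, as in 13.7% of all genes tested.

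Replicate numbers paired the libraries of the Ahr line, and with the replicate number as a block 9 members rose, where 6.17% of all genes did. They were 5 enzymes, Pmvk (0.43 ± 0.09, adjusted p = 0.00429), Sqle (0.32 ± 0.08, adjusted p = 0.0122), Hmgcs1 (adjusted p = 0.0205), Mvd and Msmo1 (both adjusted p = 0.0207), with Mylip, Scap, Npc1 and Abcg1. Mylip had 33.3, 19.9 and 23.3 CPM in Ahr KO, against 21.9, 14.6 and 16.6 CPM in Ahr flox; the groups overlapped, yet each KO library exceeded the flox library of its number (blocked change 0.52, adjusted p = 2.76e-04; 0.0963 without the block). Scap had 115, 121 and 115 CPM in Ahr KO and 95.1, 108 and 96.9 CPM in Ahr flox (blocked adjusted p = 0.0139), and it was called without the block when Ahr flox replicate 2 was left out (0.0212). DESeq2 called Scap and Mylip, and a fit of these 6 libraries alone called 11 members higher, 9 of them enzymes. The number of members called thus ran from 0 to 11 between these fits. Shares of all genes called are not given here for DESeq2 or for the 6 libraries alone. Mast cell and basophil markers summed to 181 to 226 CPM in Ahr KO and 98.0 to 125 CPM in Ahr flox (0 of 3 tested called), and T cell markers to 523 to 570 CPM in Ahr KO and 576 to 616 CPM in Ahr flox (2 of 12 lower). Macrophage and monocyte markers summed to 24.2 to 30.2 CPM in Ahr KO and 31.5 to 55.55 CPM in Ahr flox, without overlap (1 of 4 tested lower). The part of these cells in the result was not tested.

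**Figure D3:**
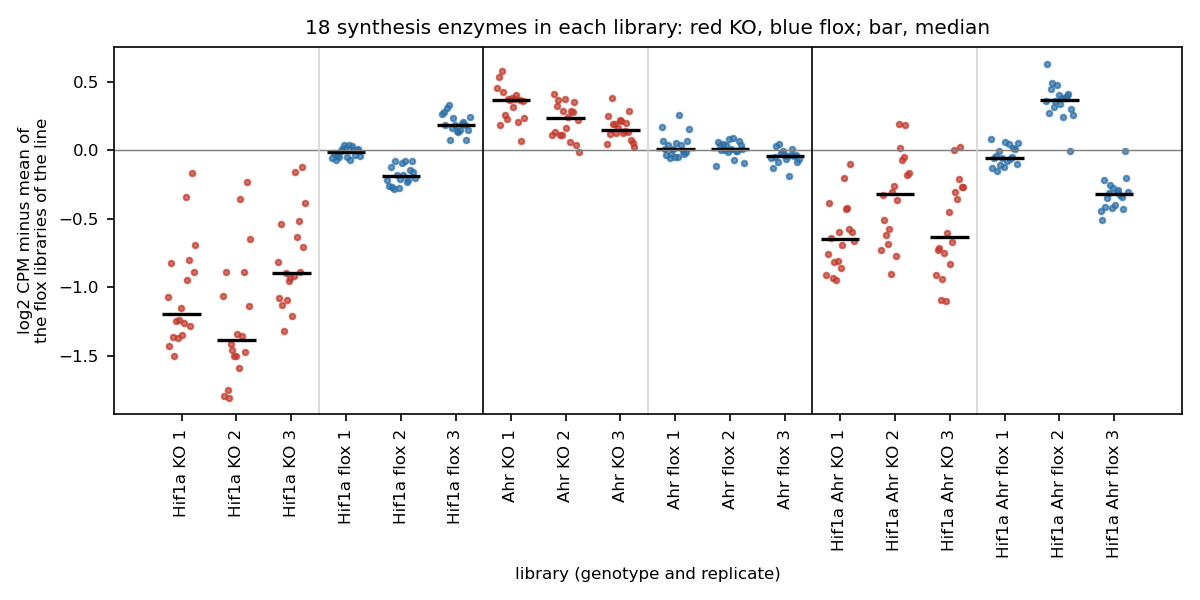
Each point is 1 of the 18 synthesis enzymes in 1 library, as log2 CPM minus the mean of the 3 flox libraries of the line, with KO libraries red and left of the flox libraries in blue; bars are medians. Medians run from -1.39 to -0.89 in Hif1a KO, from 0.15 to 0.37 in Ahr KO and from -0.65 to -0.32 in Hif1a Ahr KO, and Hif1a Ahr flox replicate 2 stands at 0.37 beside -0.05 and -0.32 in its group.

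The level of the enzymes also varied among libraries of 1 genotype. Summed over the 18 enzymes, the level was 1678, 1438 and 2053 CPM in Hif1a KO, against 3848, 3387 and 4404 CPM in Hif1a flox. In Ahr KO the sum was 4525, 4170 and 3973 CPM, against 3544, 3583 and 3396 CPM in Ahr flox. In Hif1a Ahr KO it was 1955, 2441 and 2046 CPM, against 3063, 4270 and 2516 CPM in Hif1a Ahr flox. Hif1a Ahr flox libraries thus spread widest, and their lowest sum was still above the highest of Hif1a Ahr KO. Replicate 3 held the highest level of all 18 enzymes in both Hif1a KO and Hif1a flox, while any 1 library was the highest of its group for 26.7% to 37.6% of all genes. Replicate 2 was the lowest in 15 of 18 enzymes in Hif1a KO and in 18 of 18 in Hif1a flox. In Hif1a Ahr flox, replicate 2 was highest in 17 enzymes and replicate 3 lowest in all 18, and in Hif1a Ahr KO, replicate 2 was highest in 17. In Ahr KO, replicate 1 was highest in 15 of 18 enzymes and replicate 3 lowest in 11. Ahr flox had no such order, with 8, 7 and 3 enzymes highest in replicates 1, 2 and 3 and 6, 3 and 9 lowest.

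The third comparison removes both genes. In Hif1a Ahr KO against Hif1a Ahr flox, 16 of 33 members fell and Nr1h3, Npc1 and Abca1 rose, where 31.3% of all genes tested were called, 16.5% lower and 14.8% higher. With library totals alone as the scaling, all genes split into 2836 higher and 2234 lower, against 2486 higher and 2756 lower with TMM. Of the enzymes 10 of 18 fell, 6 of 7 in the mevalonate part and 4 of 11 in the squalene and sterol part, with a median log2 change of -0.57 over the 18. Without Hif1a Ahr flox replicate 2 that median was -0.31 and 7 enzymes fell, and without Hif1a Ahr flox replicate 3, 15 fell. Shares of all genes called are not given here for fits with a library left out. No KO library overlapped the flox libraries in 14 members that were lower and 3 that were higher, against 19.7% and 17.6% of all genes tested, and 8 of the 14 were enzymes.

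Fdps had 173, 178 and 155 CPM in Hif1a Ahr KO, against 309, 428 and 280 CPM in Hif1a Ahr flox. The groups were apart, and its change of -1.01 ± 0.13 (adjusted p = 1.66e-05) was the lowest of the members. Mvd changed by -0.89 ± 0.20, Acat2 by -0.89 ± 0.18, Pmvk by -0.81 ± 0.21, Idi1 by -0.73 ± 0.13 and Mvk by -0.54 ± 0.12, all without overlap (adjusted p from 4.47e-04 to 0.00977). Hmgcs1 had 382, 515 and 389 CPM in Hif1a Ahr KO, against 591, 1001 and 453 CPM in Hif1a Ahr flox. Here the groups overlapped and the test was not passed (-0.67 ± 0.25, adjusted p = 0.0583; 0.0473 by DESeq2).

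Lss was the enzyme of the later part that fell furthest, with 105, 112 and 107 CPM in Hif1a Ahr KO, against 198, 241 and 145 CPM in Hif1a Ahr flox (-0.85 ± 0.12, adjusted p = 6.09e-05). Fdft1, Sqle and Cyp51 passed more narrowly (adjusted p = 0.0358, 0.0466 and 0.0146). Each of these 3 calls was lost without Hif1a Ahr KO replicate 1 (0.117, 0.143 and 0.0525), without Hif1a Ahr KO replicate 3 (0.1, 0.117 and 0.0596) and without Hif1a Ahr flox replicate 2 (0.190, 0.256 and 0.0802), and that of Fdft1 also without Hif1a Ahr flox replicate 1 (0.0525). With only the 6 libraries of the line in the fit, Fdft1, Sqle, Cyp51 and also Pmvk were not called (0.141, 0.12, 0.05 after rounding, and 0.0579). The other 7 enzymes of this part, Tm7sf2, Msmo1, Nsdhl, Hsd17b7, Ebp, Sc5d and Dhcr7, had changes from -0.37 to 0.04 and were not called. Ebp had 65.3, 79.5 and 71.1 CPM in Hif1a Ahr KO and 70.5, 69.7 and 69.6 CPM in Hif1a Ahr flox.

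Of the sensors, Insig1 had 68.1, 79.2 and 73.5 CPM in Hif1a Ahr KO, against 123, 146 and 107 CPM in Hif1a Ahr flox, with no overlap (-0.77 ± 0.09, adjusted p = 5.87e-06). Srebf1 fell by 0.37 ± 0.07 (adjusted p = 8.21e-04) and Nr1h2 by 0.26 ± 0.07 (adjusted p = 0.0107; 0.0678 without Hif1a Ahr KO replicate 2). Insig2 fell by 0.16 ± 0.05 (adjusted p = 0.0260), a call lost without Hif1a Ahr KO replicate 3 or Hif1a Ahr flox replicate 2 or 3 (0.129, 0.0518 and 0.0539) and with library totals alone as the scaling (0.172). Srebf2 had 399, 488 and 456 CPM in Hif1a Ahr KO, against 462, 534 and 405 CPM in Hif1a Ahr flox, and Scap 94.8, 102 and 98.4 CPM in Hif1a Ahr KO, against 94.7, 112 and 95.05 CPM in Hif1a Ahr flox. Both overlapped and neither was called (adjusted p = 0.699 and 0.750). Nr1h3 had 0.484, 0.780 and 0.507 CPM in Hif1a Ahr KO and 0.287, 0.413 and 0.309 CPM in Hif1a Ahr flox; its rise (0.81 ± 0.30, adjusted p = 0.0468) was not called by DESeq2 (0.0807), nor without Hif1a Ahr KO replicate 2 or 3 or Hif1a Ahr flox replicate 1 or 3 (0.241, 0.0551, 0.135 and 0.113).

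Among transport genes, Npc1, the lysosomal membrane exporter of cholesterol, had 120, 151 and 139 CPM in Hif1a Ahr KO, against 82.7, 99.7 and 70.7 CPM in Hif1a Ahr flox. All KO libraries were higher, and the change was 0.69 ± 0.11 (adjusted p = 1.44e-04). Its lysosomal partner Npc2 was not called (0.09 ± 0.11, adjusted p = 0.589). Stard4 fell by 0.68 ± 0.10 (adjusted p = 4.10e-05) and Mylip by 0.65 ± 0.18 (adjusted p = 0.0139; 0.0539 without Hif1a Ahr KO replicate 1 and 0.0645 without Hif1a Ahr flox replicate 2). Abca1 had 4.16, 5.48 and 4.55 CPM in Hif1a Ahr KO, against 3.57, 3.10 and 1.82 CPM in Hif1a Ahr flox (0.74 ± 0.23, adjusted p = 0.0181), and was not called without Hif1a Ahr KO replicate 2 or Hif1a Ahr flox replicate 3 (0.0856 and 0.0859). Abcg1 was not called (0.37 ± 0.21, adjusted p = 0.211). Macrophage and monocyte markers summed to 38.3 to 47.6 CPM in Hif1a Ahr KO and 38.7 to 46.3 CPM in Hif1a Ahr flox (2 of 4 tested lower). NK cell markers summed to 25690 to 26910 CPM in Hif1a Ahr KO and 28320 to 33280 CPM in Hif1a Ahr flox (4 of 12 higher, 1 lower). T cell markers summed to 520 to 542 CPM in Hif1a Ahr KO and 586 to 623 CPM in Hif1a Ahr flox (2 of 12 higher, 2 lower). Mast cell and basophil markers summed to 48.8 to 96.9 CPM in Hif1a Ahr KO and 96.4 to 170 CPM in Hif1a Ahr flox (1 of 3 tested higher, 1 lower). Dendritic cell markers summed to 273 to 323 CPM in Hif1a Ahr KO and 184 to 264 CPM in Hif1a Ahr flox (1 of 5 tested higher, 2 lower). Most of the dendritic cell sum was Itgax. H2-Ab1 of that list had 6.83, 3.72 and 5.35 CPM in Hif1a Ahr KO, against 40.1, 38.7 and 39.6 CPM in Hif1a Ahr flox. Here too, most of the NK cell sum was Gzma and Gzmb. Neutrophil markers summed to 0.157 to 0.359 CPM in Hif1a Ahr KO and 0.983 to 5.89 CPM in Hif1a Ahr flox (5 of 5 tested lower). The part of these cells in the results was not tested.

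**Figure D4:**
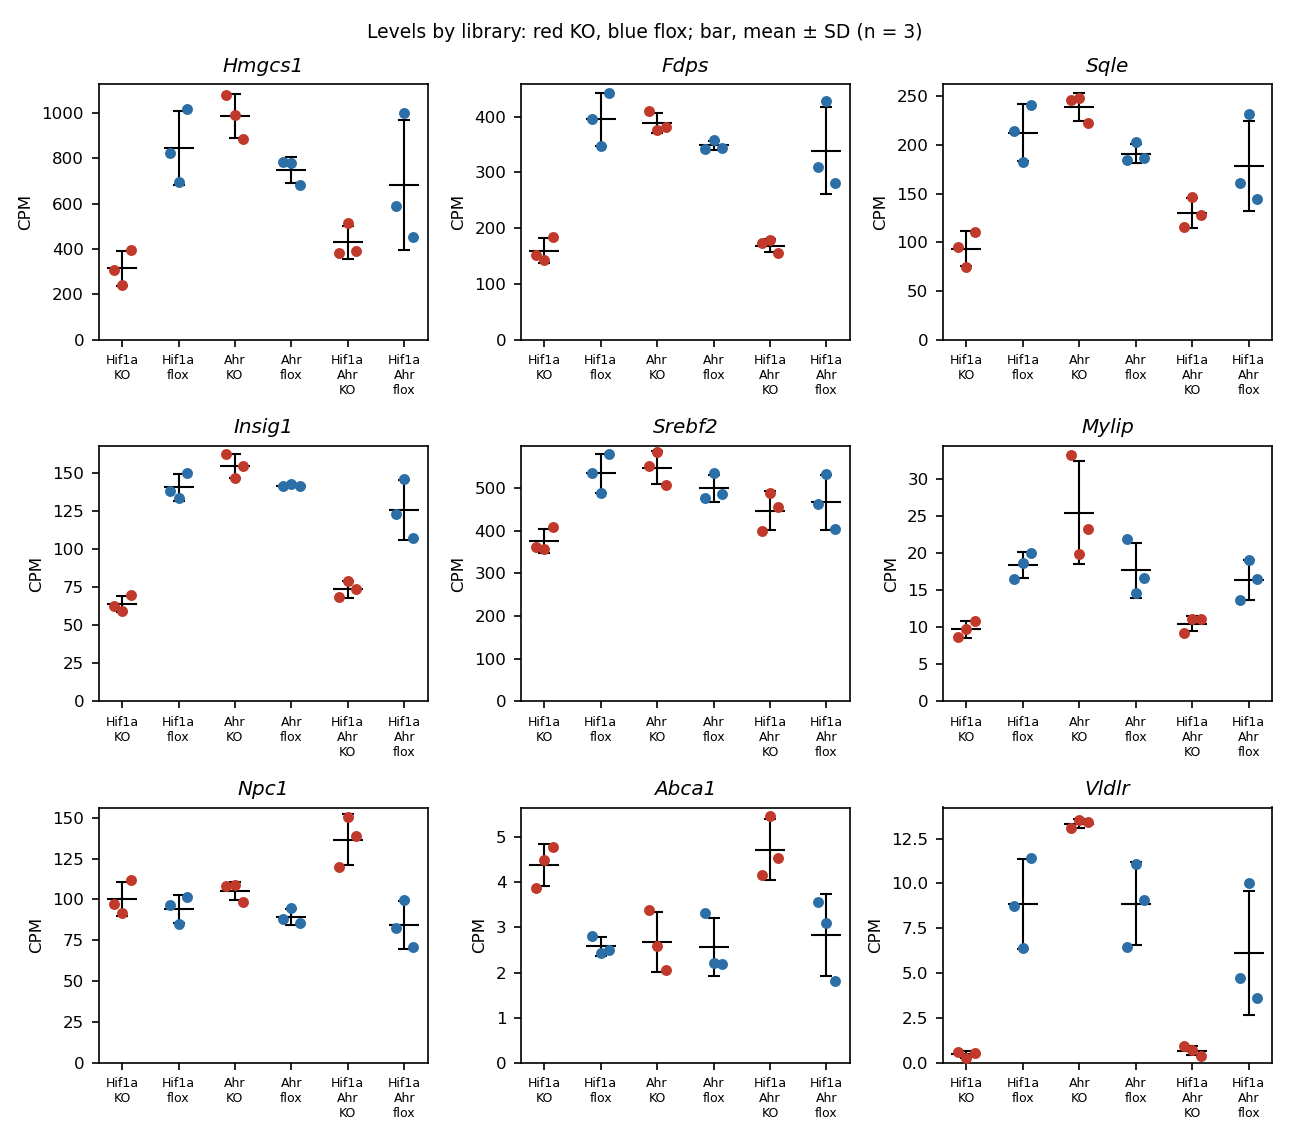
Dots are CPM in single libraries for 8 members and the lipoprotein receptor gene Vldlr, KO in red left of flox in blue within each line, with mean and SD (n = 3); each axis starts at 0. Insig1 is at 59.4 to 79.2 CPM in the 2 groups with Hif1a deleted and at 107 CPM or more elsewhere, and Npc1 is highest in Hif1a Ahr KO.

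The 3 effects were then compared with each other. By test, the Hif1a KO effect was lower than the Ahr KO effect in 23 members, 16 of them enzymes, and higher in none. Over all genes tested 32.4% were called, 15.7% lower and 16.6% higher. In Ahr KO itself no member was called, and the changes of 32 of 33 members were positive, against 8433 of 16743 genes tested. The median difference over the enzymes was -1.41, and the largest were Mvd at -1.89 ± 0.28, Pmvk at -1.85 ± 0.30 and Hmgcs1 at -1.82 ± 0.36 (adjusted p = 1.49e-04, 3.15e-04 and 0.00137). Insig1 differed by -1.26 ± 0.13 (adjusted p = 1.58e-06) and Mylip by -1.45 ± 0.26 (adjusted p = 4.57e-04). Tm7sf2, Ebp, Ggps1, Insig2, Nr1h2, Nr1h3, Npc1, Npc2, Abca1 and Abcg1 did not pass. With the replicate block, Tm7sf2, Ebp and Nr1h3 differed downward (adjusted p = 0.0122, 0.0402 and 0.0334) and Abca1 upward (0.70 ± 0.25, adjusted p = 0.0445). A p that misses the threshold does not show that the effects were alike.

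By sign alone, the Hif1a Ahr KO effect was higher than the Hif1a KO effect in 28 of 33 members and in 18 of 18 enzymes, against 8322 of 16743 genes tested. The median difference was 0.50 over the enzymes. By test, 4 members passed, all higher, where 9.65% of all genes tested did, 4.53% higher and 5.12% lower. Npc1 differed by 0.61 ± 0.16 (adjusted p = 0.0235), with a change of 0.69 in the Hif1a Ahr line, against 0.09 in the Hif1a line. Soat1 differed by 0.40 ± 0.10 (adjusted p = 0.0235), Srebf1 by 0.36 ± 0.10 (adjusted p = 0.0358) and Hsd17b7 by 0.90 ± 0.27 (adjusted p = 0.0474). These calls depend on single libraries: 20 members passed without Hif1a Ahr flox replicate 2, 10 without Hif1a Ahr KO replicate 1, 9 without Hif1a KO replicate 3, and 0 without Hif1a KO replicate 1 or 2, Hif1a flox replicate 1 or 3, or Hif1a Ahr KO replicate 2 or 3, while 1 passed without Hif1a Ahr flox replicate 1 and 2 without Hif1a Ahr flox replicate 3. The share of all genes called is not given here for those fits with a library left out. Of the lines compared here, the replicate numbers met the pairing rule in the Hif1a line only. With the replicate block, 20 members were higher, 12 of them enzymes, where 9.57% of all genes tested were higher and 9.29% lower. Sqle then differed by 0.76 ± 0.11 (adjusted p = 4.47e-04) and Npc1 by 0.62 ± 0.10 (adjusted p = 0.00130).

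By test, the Hif1a Ahr KO effect was lower than the Ahr KO effect in 14 members, 10 of them enzymes, and higher in none. Over all genes tested 16.4% were called, 7.78% lower and 8.6% higher. By sign alone it was lower in 28 of 33 members and in 18 of 18 enzymes, against 8513 of 16743 genes tested. Insig1 differed by -0.89 ± 0.13 (adjusted p = 1.30e-04), Fdps by -1.16 ± 0.18 (adjusted p = 3.18e-04) and Lss by -1.11 ± 0.18 (adjusted p = 3.52e-04). On the log2 scale, 0 members had a Hif1a Ahr KO effect that differed by test from the added effects of Hif1a KO and Ahr KO (smallest adjusted p 0.837; 0 with an unadjusted p under 0.05), where 0.0358% of all genes tested did, and DESeq2 and the replicate block also called 0. The departure was positive for 17 of 18 enzymes, against 8620 of 16743 genes tested. Its median was 0.24 over the enzymes and 0.008 over all genes tested. The enzyme median ran from 0.12 without Hif1a Ahr flox replicate 3 to 0.436 without Hif1a Ahr flox replicate 2. Leaving out Hif1a KO replicate 3 gave 0.374, and leaving out Hif1a flox replicate 3 gave 0.132.

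**Figure D5:**
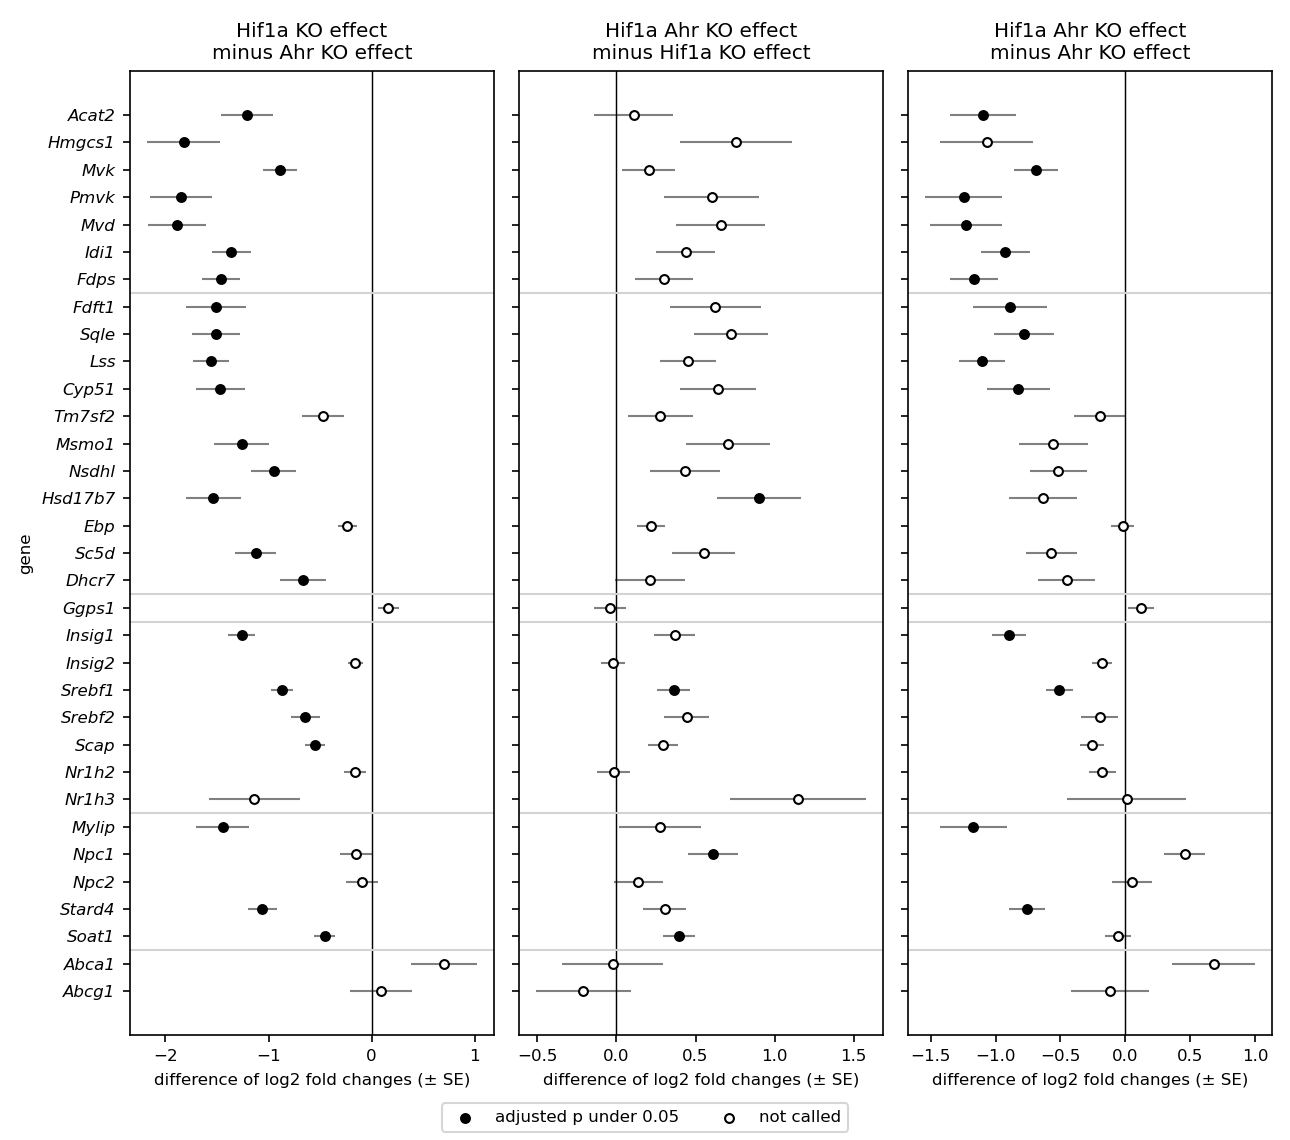
Points give, for each gene, the difference between KO effects (log2 fold changes) with its standard error; filled points passed an adjusted p of 0.05. The enzymes lie left of 0 for Hif1a KO minus Ahr KO, right of 0 with 1 filled point for Hif1a Ahr KO minus Hif1a KO, and left of 0 for Hif1a Ahr KO minus Ahr KO.

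The flox groups of the 3 lines were not told apart by these genes. An F test across Hif1a flox, Ahr flox and Hif1a Ahr flox called 0 of 33 members, where 0.245% of all genes tested were called, and 0 members had an unadjusted p under 0.05 (adjusted p from 0.753 to 0.949).

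Other genes of sterol handling, from lists of neighbouring functions, were read in the same fits. Over all genes tested, 17.6% rose and 17.8% fell in Hif1a KO, 2.13% rose and 4.78% fell in Ahr KO, and 14.8% rose and 16.5% fell in Hif1a Ahr KO, with median log2 changes of -0.01, 0.00 and -0.02. Of 8 genes that supply acetyl-CoA and NADPH for lipid synthesis, 5 fell and 1 rose in Hif1a KO (median -0.67), where 17.8% and 17.6% of all genes did. Slc25a1, the citrate carrier that feeds cytosolic acetyl-CoA, had 47.4, 45.6 and 53.6 CPM in Hif1a KO, against 91.4, 89.0 and 103 CPM in Hif1a flox (-0.95 ± 0.08, adjusted p = 5.03e-08). Pgd, of the oxidative pentose phosphate pathway, fell by 0.76 ± 0.06 (adjusted p = 5.63e-08), and Acss1, the mitochondrial acetyl-CoA synthetase, rose by 1.13 ± 0.09 (adjusted p = 5.45e-08). In Hif1a Ahr KO 4 of the 8 fell and 2 rose, with Slc25a1 at -0.57 ± 0.08 and Acss1 at 1.12 ± 0.09, and in Ahr KO none passed (0 of 8).

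The next list held lipoprotein receptors and related proteins that are not such receptors, Lrpap1 and Scarb2. Of its 7 genes tested, 4 fell and 1 rose in Hif1a KO (median -0.29), where 17.8% and 17.6% of all genes did. Vldlr, which takes up triglyceride-rich particles and is a known HIF target, had 0.623, 0.239 and 0.548 CPM in Hif1a KO, against 8.77, 6.38 and 11.4 CPM in Hif1a flox (-4.23 ± 0.45, adjusted p = 5.58e-06). It had 0.915, 0.727 and 0.402 CPM in Hif1a Ahr KO, against 4.74, 10.1 and 3.59 CPM in Hif1a Ahr flox (-3.17 ± 0.43, adjusted p = 5.99e-05). The KO libraries of both lines were far below their flox libraries. Lrp8, a receptor of the same family, fell by 0.82 ± 0.08 in Hif1a KO (adjusted p = 7.12e-07) and rose by 0.33 ± 0.08 in Ahr KO (adjusted p = 0.0207). It was the 1 gene of this list called in Ahr KO. The rise was not called without Ahr KO replicate 3 or Ahr flox replicate 1 or 3 (0.0931, 0.116 and 0.0645).

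Of 17 tested genes of sterol transfer and lysosomal hydrolysis, 6 rose and 3 fell in Hif1a KO, 3 rose in Ahr KO, and 5 rose and 1 fell in Hif1a Ahr KO, where 35.4%, 6.91% and 31.3% of all genes were called; in Hif1a Ahr KO the list was near that share. Its median changes were -0.05, 0.01 and 0.19. Of the 3 calls in Ahr KO, that of Osbpl2 (adjusted p = 0.0463) was lost when any 1 of the 6 libraries was left out (0.0648 to 0.189). Stard3nl, which tethers endosomes to the endoplasmic reticulum, rose by 0.65 ± 0.07 in Hif1a KO and 0.49 ± 0.07 in Hif1a Ahr KO (adjusted p = 8.10e-07 and 2.11e-05). Tmem97, a sterol-responsive partner of Npc1, fell by 0.63 ± 0.09 in Hif1a KO (adjusted p = 1.76e-05), and Nceh1, a cholesterol ester hydrolase, rose by 0.71 ± 0.07 in Hif1a Ahr KO (adjusted p = 4.51e-07). Of 12 genes that activate SREBP or turn over its partners, 2 rose and 3 fell in Hif1a KO, 2 rose in Ahr KO, and 7 rose and 2 fell in Hif1a Ahr KO, with medians of -0.04, 0.07 and 0.26; in Hif1a KO the count was near the 35.4% of all genes called. Paqr3, which anchors Scap at the Golgi, rose by 1.05 ± 0.16 in Hif1a Ahr KO and 0.69 ± 0.16 in Hif1a KO (adjusted p = 6.66e-05 and 0.00277). Syvn1, an endoplasmic reticulum ubiquitin ligase, fell by 0.61 ± 0.09 in Hif1a KO (adjusted p = 3.34e-05). The 2 genes that rose in Ahr KO were Syvn1 and Sec24a (adjusted p = 0.03 and 0.0454). Syvn1 was not called there without Ahr KO replicate 2 or 3 or Ahr flox replicate 1 or 3. Sec24a was not called without Ahr KO replicate 1 or 2 or Ahr flox replicate 1 or 3.

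Of 6 tested genes that are other LXR targets or RXR partners, 3 rose and 1 fell in Hif1a KO, 2 fell in Ahr KO, and 1 rose and 1 fell in Hif1a Ahr KO, where 35.4%, 6.91% and 31.3% of all genes were called; in Hif1a Ahr KO the list was near that share. Its median changes were 0.14, -0.04 and -0.03. Pltp, the phospholipid transfer protein, had 9.64, 10.5 and 8.70 CPM in Ahr KO, against 40.6, 32.4 and 37.0 CPM in Ahr flox (-1.93 ± 0.16, adjusted p = 1.34e-06). It had 8.84, 5.75 and 9.93 CPM in Hif1a Ahr KO, against 24.7, 24.2 and 31.1 CPM in Hif1a Ahr flox (-1.71 ± 0.16, adjusted p = 3.72e-07). Smpdl3a, a phosphodiesterase, rose by 1.14 ± 0.15 in Hif1a KO and fell by 0.95 ± 0.16 in Ahr KO (adjusted p = 2.01e-05 and 0.00129), and Rxra, the partner receptor of LXR, rose by 1.56 ± 0.32 in Hif1a KO (adjusted p = 0.00123). Rxra was also the 1 gene that rose in Hif1a Ahr KO (1.18, adjusted p = 0.00901). That call was lost without Hif1a Ahr KO replicate 3 (0.0536) and with only the 6 libraries of the line in the fit (0.0828). Of 13 genes of prenylation, dolichol and ubiquinone, which draw on farnesyl diphosphate, 2 fell in Hif1a KO, none passed in Ahr KO (0 of 13), and 3 rose and 3 fell in Hif1a Ahr KO, where 31.3% of all genes were called. The 1 tested gene of oxysterol metabolism was not called in any line.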

How the data were processed

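RNA of 18 libraries, 3 in each of 6 groups, was analysed per gene. The deposited estimated counts, 1 table per library, came from Trim Galore 0.6.4, kallisto 0.4.6 and the GRCm39 build, per the submitters' processing notes, which also name edgeR 3.17; their roles are not described further there. Between 65.5% and 67.8% of values above 0 were not whole, so the estimated counts were rounded. The deposited log2 values of the authors equalled log2 CPM with a prior count of 2 and no scaling factors, and were used only for that check. Symbols came with 52029 of 56953 identifiers.

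Genes were filtered with filterByExpr at a minimum count of 10, scaled with TMM and fitted over all 6 groups with edgeR 4.0.16's quasi-likelihood test in R 4.3.3 (12 residual degrees of freedom, common biological coefficient of variation 0.117), with Benjamini-Hochberg adjustment over all 16743 genes. A gene was called at an adjusted p under 0.05. Each KO was set against the flox group of its line, and effects were compared by contrasts in the same fit. DESeq2 1.42.0, limma 3.58.1 (voom), RLE factors, library totals, no filter, fits of 6 libraries, a replicate block, unrounded counts and leaving out each library were the alternatives; the unrounded counts and the alternatives for genes outside the 33 were added after seeing the data. The fit was tested on simulated data with known changes.

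The titles call the samples biological replicates but do not tie them to animals, so p-values measure the spread between these samples. Same-numbered KO and flox libraries deviated together in the Hif1a line (correlations 0.296 to 0.53) and the Ahr line (0.333 to 0.534), computed on the 9986 genes averaging 5 CPM or more. Each was above the minimum of 0.1, so the numbers were read as pairs there, from the data and not from the labels. Pairing entered only the replicate block, and the main calls came from the fit without it. All 33 members were named, with up to 3 called genes per related list and comparison by adjusted p; the members and lists were chosen with earlier results of these data known. Promoter windows and their sequences are RefSeq's, on GRCm38.p6.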

Additional observations from a re-analysis of the deposited data

Results flagged for a closer look

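Effects of 1 KO that differed by test from those of another are given here, as log2 differences from edgeR's quasi-likelihood test with Benjamini-Hochberg adjustment. Hif1a Ahr KO against Hif1a KO gave higher effects on Hsd17b7 (0.901), Npc1 (0.609), Soat1 (0.396) and Srebf1 (0.363). For Hsd17b7, a sterol ketoreductase, the changes behind it were -0.30 in the Hif1a Ahr line and -1.20 in the Hif1a line. Each of the 4 calls was lost without Hif1a KO replicate 1 or 2, Hif1a flox replicate 1 or 3, or Hif1a Ahr KO replicate 2 or 3, where adjusted p lay between 0.0505 and 0.124.

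Hif1a Ahr KO against Ahr KO gave lower effects on 10 enzymes. In the mevalonate part these were Pmvk (-1.247), Mvd (-1.227), Fdps (-1.164), Acat2 (-1.097), Idi1 (-0.924) and Mvk (-0.688), with adjusted p from 3.18e-04 for Fdps to 0.0110 for Pmvk. In the squalene and sterol part they were Lss (-1.107), Fdft1 (-0.887), Cyp51 (-0.824) and Sqle (-0.781), with adjusted p from 3.52e-04 for Lss to 0.0495 for Fdft1. Fdft1, Cyp51 and Sqle were no longer called without Ahr KO replicate 1 or 2, Ahr flox replicate 1 or 3, Hif1a Ahr KO replicate 1 or 3, or Hif1a Ahr flox replicate 2 (adjusted p from 0.0588 to 0.114), and Fdft1 also without Ahr KO replicate 3, Ahr flox replicate 2 or Hif1a Ahr flox replicate 1 (0.066, 0.0855 and 0.0597). Outside synthesis, Mylip (-1.172), Insig1 (-0.893), Stard4 (-0.756) and Srebf1 (-0.508) also differed. No explanation was tested for any of these.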

How the results depend on the processing

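Of single-gene values, 1329 kept direction and call under other settings and 1196 with 1 library left out; 46 and 121 lost the call and 34 and 7 gained it. Shares of all genes called are not given for DESeq2, voom, the fits of 6 libraries or the fits with a library left out. Counts of members in those fits therefore have no background beside them. In Hif1a KO, voom called 1 member higher, and 1 to 2 were higher with a library left out. In Ahr KO, DESeq2 called 2 members, the 6 libraries alone 11 (9 enzymes), the replicate block 9 (5 enzymes), and 0 to 1 with a library left out. In Hif1a Ahr KO, the 6 libraries alone called 11 members, 1 higher and 10 lower (6 enzymes lower); with a library left out 1 to 4 were higher, 11 to 20 lower, 7 to 15 enzymes lower, and the enzyme median was -0.69 to -0.307. Replicate numbers did not meet the pairing rule in the Hif1a Ahr line (correlations 0.067 to 0.448), although each KO library correlated best with its own number in 3 of 3, a hint from the data and not the design; there the replicate block called 25 members, 15 enzymes lower, with 19.2% of all genes lower. The block changed no other call in the Hif1a and Ahr lines beside those reported.

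For Hif1a KO minus Ahr KO, library totals and the replicate block each called 1 member higher (0 to 1 with a library left out). For Hif1a Ahr KO minus Hif1a KO, members called were 10 (5 enzymes) by DESeq2, 2 with library totals and 20 (12 enzymes) with the replicate block, where 9.57% of all genes were higher against 4.53% without it; 0 enzymes were called with RLE factors or no filter, and leaving out a library gave 0 to 20 members and 0 to 13 enzymes. For Hif1a Ahr KO minus Ahr KO, DESeq2 and library totals called 1 member higher, the replicate block 22 members (1 higher, 16 enzymes lower; 10.9% of all genes lower), and leaving out a library gave 0 to 1 higher, 7 to 14 enzymes lower and an enzyme median of -0.938 to -0.58.

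Reversed directions were all of uncalled genes. With library totals they were Npc2 in Hif1a KO (0.055), Ggps1 (-0.036), Insig2 (-0.022) and Npc2 (-0.001) in Ahr KO, and Tm7sf2 (0.033) and Scap (0.010) in Hif1a Ahr KO. With a library left out the ranges crossed 0 for Npc2 in Hif1a KO (-0.159 to 0.051), for Ggps1 (-0.017 to 0.021), Npc2 (-0.038 to 0.098) and Abca1 (-0.146 to 0.285) in Ahr KO, and for Tm7sf2 (-0.143 to 0.120), Ebp (-0.034 to 0.107), Srebf2 (-0.153 to 0.046), Scap (-0.077 to 0.051) and Npc2 (-0.019 to 0.218) in Hif1a Ahr KO. The causes were not tested. Depth was near equal between libraries, and which genes it limits was not tested.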
